A study of Mus musculus with 30 samples.

Results

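Foxp3, Folr4, Gpr83, Nrp1 and Lrrc32 are genes best known from regulatory T cells, and their RNA was followed here in helper T cells that had been sorted as negative for a Foxp3 reporter. The 5 genes were chosen by name, and all 5 were found among the 23420 gene symbols listed for each library. They and the gene lists used below were chosen with earlier results of these data known, so counts over a list are a description only. RNA-seq was run on 10 groups of mouse CD4 T cells with 3 libraries per group, 30 libraries altogether. The cells were isolated as naive from C57BL/6 mice that carried 2 reporter alleles, Foxp3-GFP and IL-10-Thy1.1, so all groups share them. Every culture was stimulated by anti-CD3 (2.5 ug/ml) on splenocytes that had been irradiated and cleared of CD4 cells, 6 of them for each T cell. Cytokines set the cultures apart: 20 ng/ml IL-12 for Th1, 20 ng/ml IL-4 for Th2 and 25 ng/ml IL-27 for Tr1. Th17 cells, of the non-pathogenic kind, were given 25 ng/ml IL-6 with 2 ng/ml TGF-beta 1. Pathogenic Th17 cells, here pTh17, were given 25 ng/ml IL-6 with 20 ng/ml each of IL-23 and IL-1 beta. At 72 h the live GFP negative T cells of each culture were sorted again by the Thy1.1 reporter into an IL-10 positive and an IL-10 negative compartment, 2000 cells per library. The series as given here holds no GFP positive regulatory T cells, so there is no regulatory T cell level to set these values against. A reporter gate depends on the fluorescence of GFP and does not by itself show that a cell holds no Foxp3 RNA.

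Foxp3 is the transcription factor that defines regulatory T cells. Folr4, also named Izumo1r, encodes a surface protein of the folate receptor family that does not carry folate in the way its relatives do; it is abundant on regulatory T cells and on anergic T cells. Gpr83 encodes a G protein coupled receptor that is enriched in regulatory T cells. Nrp1 encodes neuropilin 1, a co-receptor for semaphorins and vascular growth factors that is used to mark regulatory T cells of thymic origin. Lrrc32 encodes GARP, which holds latent TGF-beta at the surface of activated regulatory T cells and of platelets.

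In RefSeq annotation of GRCm38.p6, the assembly that mm10 names, Folr4 lies at chr9:14885814-14903951 on the minus strand and Gpr83 at chr9:14859880-14870789 on the plus strand. These genes are neighbours that point towards each other, with 15024 bases between their ends. Nrp1 lies at chr8:128358591-128505476, Lrrc32 at chr7:98489305-98501831 and Foxp3 at chrX:7579676-7595243, all on the plus strand. RefSeq promoter windows, from 250 bases before to 50 bases after a start site, were given for 4 of the 5 genes, all but Lrrc32. The windows of Folr4 and Gpr83 are shown because these neighbours were called in the same direction in 4 cultures (Th1, Th2, Th17 and Tr1). That of Nrp1 is shown because it was called in the other direction in Th1, Th2 and Tr1, though it was lower with them in Th17. The windows of Folr4, Gpr83 and Nrp1 span chr9:14903718-14904017 (minus strand), chr9:14859960-14860259 (plus strand) and chr8:128358823-128359122 (plus strand). Their start sites lie 184, 330 and 482 bases inside the outermost RefSeq start of each gene, so part or all of each window lies within the gene as drawn by its outermost model. Capitals mark every match to 6 short motifs, searched on both strands.
Folr4: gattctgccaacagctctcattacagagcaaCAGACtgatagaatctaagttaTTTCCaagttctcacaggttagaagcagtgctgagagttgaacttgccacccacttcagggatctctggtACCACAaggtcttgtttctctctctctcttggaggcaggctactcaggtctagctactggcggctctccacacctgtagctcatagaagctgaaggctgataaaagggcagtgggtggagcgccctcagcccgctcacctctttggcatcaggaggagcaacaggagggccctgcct
Gpr83: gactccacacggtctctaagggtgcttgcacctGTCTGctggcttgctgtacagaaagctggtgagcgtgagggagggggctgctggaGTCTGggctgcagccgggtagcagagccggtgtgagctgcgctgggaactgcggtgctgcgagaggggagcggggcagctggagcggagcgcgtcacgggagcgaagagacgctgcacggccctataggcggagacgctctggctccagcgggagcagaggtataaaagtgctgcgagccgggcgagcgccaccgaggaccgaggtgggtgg
Nrp1: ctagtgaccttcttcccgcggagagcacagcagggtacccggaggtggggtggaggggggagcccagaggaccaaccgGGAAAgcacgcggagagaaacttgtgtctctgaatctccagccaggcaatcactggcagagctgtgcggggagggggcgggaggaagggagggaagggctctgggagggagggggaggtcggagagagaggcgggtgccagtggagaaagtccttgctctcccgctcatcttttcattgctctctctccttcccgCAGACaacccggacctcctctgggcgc

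The motifs were forkhead (TGTTTAC), TCF (CTTTGA), Runx (TGTGGT), SMAD (CAGAC), NFAT (GGAAA) and STAT (TTC, any 3 bases, GAA). The Folr4 window holds 1 SMAD, 1 NFAT and 1 Runx match, the Gpr83 window 2 SMAD matches, and the Nrp1 window 1 NFAT and 1 SMAD match. Of all 32851 windows, 49.6% hold a SMAD match, 61.3% an NFAT match and 16.8% a Runx match. None of the 3 windows shown holds a forkhead match (3.6% of all windows), a TCF match (16%) or a STAT match (8.3%), which says only that these letters are not in these windows. The Folr4 window has a GC content of 52.3%, near the median of 52.7% over all windows, and those of Gpr83 and Nrp1 have 67.0% and 64.0%.

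Levels are given as TPM, the share of a gene among all transcripts, a measure scaled for gene length and library depth that allows genes to be compared with each other. Over the 30 libraries the level of Folr4 ran from 43.3 to 479.0 TPM (median 308.5), that of Gpr83 from 1.27 to 121.8 TPM (median 11.1) and that of Nrp1 from 0.92 to 18.7 TPM (median 9.66). Lrrc32 ran from 0 to 31.7 TPM (median 2.13) and Foxp3 from 0.10 to 1.76 TPM (median 0.375). Folr4 was thus the most abundant of the 5 in every library, and Foxp3 stayed below 2 TPM throughout. Changes are log2 fold changes of IL-10 positive over IL-10 negative, with their standard error, from edgeR's quasi-likelihood test on expected counts, the estimated reads per gene. The p-values were adjusted by the Benjamini-Hochberg method over 12611 genes tested, and a gene was called at an adjusted p below 0.05. Whether the libraries of a group stem from different mice or wells is not in the labels; the p-values therefore rest only on how far these libraries spread, and that spread may be technical. In bulk libraries such as these, fewer cells of a type and less RNA per cell cannot be told apart.

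In Th17 cultures 4 of the 5 genes were called and all 4 were lower in IL-10 positive cells, where 58.2% of all genes were called and 28.9% were called lower. In Th1 cultures 3 were called, Folr4 and Gpr83 lower and Nrp1 higher, against 43.8% of all genes. In Tr1 cultures 3 were called with the same directions as in Th1, against 34.7%. In Th2 cultures 4 were called, Folr4 and Gpr83 higher and Nrp1 and Lrrc32 lower, against 21.8%. In pTh17 cultures Folr4 alone was called, against 18.5%. Over the mean of the 5 cultures 3 were called, all lower (Folr4, Gpr83 and Foxp3), against 57.8% of all genes called and 28.2% called lower. The difference was called unequal over the 5 cultures for all but Foxp3, where 60.7% of all genes were so called. By TPM, the compartments did not overlap for 4 genes in Th1, Th2 and Th17, for 3 in Tr1 and for 2 in pTh17, and for 50.9%, 39.1%, 63.6%, 40.9% and 32.9% of all genes in these cultures.

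**Figure D1:**
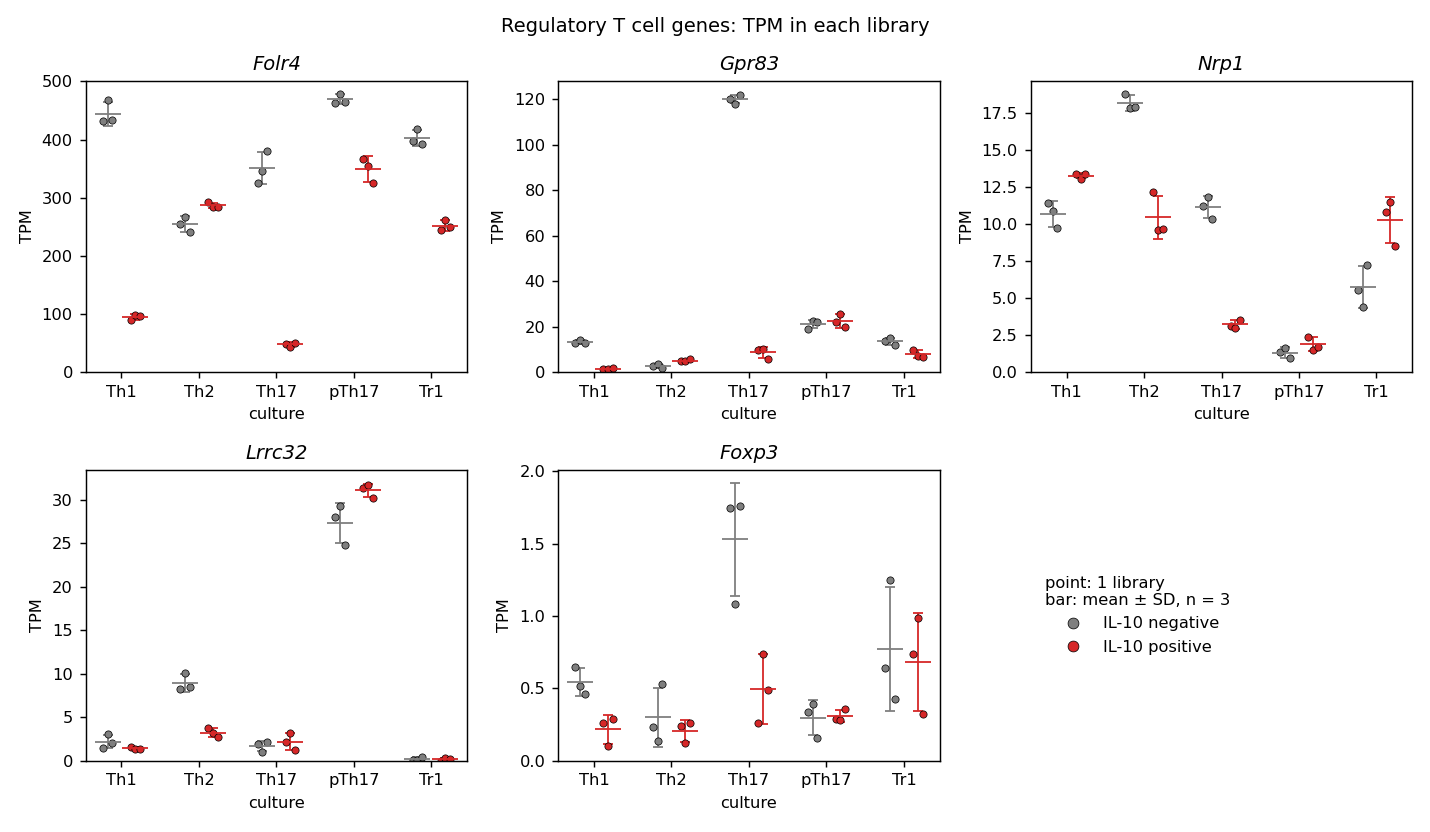
Level of each gene in TPM (vertical axis, from 0, a scale of its own per panel) in every library of the 5 cultures (horizontal axis), grey for IL-10 negative and red for IL-10 positive. Points are libraries and bars are mean ± SD (n = 3). Folr4 is lower in the red points of Th1, Th17, pTh17 and Tr1, Gpr83 stands out in Th17 IL-10 negative libraries at 118.1 to 121.8 TPM, and Foxp3 does not pass 1.76 TPM.

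Folr4 was the strongest of the 5 in level and was lower in IL-10 positive cells of 4 cultures. In Th1 cultures it read 431.2, 467.5 and 433.6 TPM in the IL-10 negative libraries and 89.8, 97.6 and 97.2 TPM in the positive ones. Every positive library lay below every negative one, and the change was -2.19 ± 0.07 (edgeR, adjusted p = 1.3e-25). In Th17 cultures it read 326.1, 346.0 and 380.4 TPM in negative and 48.9, 43.3 and 50.7 TPM in positive libraries. This was the largest Folr4 difference of the 5 cultures, again without overlap, at -2.73 ± 0.07 (edgeR, adjusted p = 1.46e-27). In Tr1 cultures the values were 397.9, 418.4 and 391.8 TPM in negative and 244.3, 262.2 and 248.9 TPM in positive libraries, a change of -0.60 ± 0.07 (edgeR, adjusted p = 2.28e-09). In pTh17 cultures they were 463.8, 479.0 and 464.3 TPM in negative and 367.1, 355.4 and 324.6 TPM in positive libraries, a change of -0.50 ± 0.06 (edgeR, adjusted p = 9.25e-08). Neither of these pairs of groups overlapped, and both changes were smaller than those in Th1 and Th17.

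In Th2 cultures the direction of Folr4 was opposite. It read 255.2, 267.6 and 241.4 TPM in negative and 292.4, 284.4 and 284.0 TPM in positive libraries. The groups did not overlap, but the change of 0.17 ± 0.06 only just passed the test (edgeR, adjusted p = 0.0487). That call was lost on leaving out any 1 of the 6 Th2 libraries (edgeR, adjusted p from 0.0574 to 0.143) and with all genes kept (0.127). The difference was not equal in the 5 cultures (edgeR, adjusted p = 3.36e-25).

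Between cultures, levels were compared as CPM, each gene's share of the counts with libraries scaled by TMM, with edgeR's test of each pair of cultures. Among IL-10 negative cells Folr4 stood at 332 ± 7.62 CPM (SD, n = 3) in pTh17 and 324 ± 9.87 in Th1, which did not differ beyond their spread (edgeR, adjusted p = 0.672). Tr1 followed at 256 ± 7.74, below Th1 (edgeR, adjusted p = 3.46e-05), and then Th17 at 189 ± 11.4 and Th2 at 181 ± 3.04. No difference was called between Th17 and Th2 on this scale (edgeR, adjusted p = 0.421). Their TPM means were 351 ± 27.5 and 255 ± 13.1, and limma on log2(TPM + 1) called Th2 lower (-0.46, adjusted p = 1.67e-07). Th17 stood above Th2 on both scales, and whether this was called depended on the scale. Among IL-10 positive cells the order was pTh17 (235 ± 19.9 CPM), Th2 (204 ± 4.79), Tr1 (170 ± 11.1), Th1 (70.8 ± 2.17) and Th17 (28.5 ± 2.54). Each of these neighbours differed from the next, the least firmly pTh17 from Th2 (edgeR, adjusted p = 0.00466, and 0.0778 without pTh17 IL-10 positive replicate 13).

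The relatives of Folr4 were nearly silent. Of 4 genes listed as folate receptors and transporters, 1 passed the filter on low counts: Slc19a1, the reduced folate carrier. Folr1 and Folr2, the receptors that carry folate, stayed at or below 0.200 CPM in every group, and Slc46a1, the proton-coupled folate transporter, at or below 1.01 CPM. Slc19a1 was higher in IL-10 positive cells of Th17 cultures, at 88.8 against 39.7 CPM (1.16 ± 0.10; edgeR, adjusted p = 2.16e-12). In Th1 cultures it was lower, at 8.96 against 15.1 CPM (-0.77 ± 0.15), and it was not called in the other 3 cultures.

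Folr4 is also read as a marker of anergy together with Nt5e, which encodes the surface enzyme CD73. Of 9 listed anergy genes, 6 were lower and 2 higher in IL-10 positive Th1 cells, 5 lower and 2 higher in Th17, 4 lower and 2 higher in Th2, 5 lower and none higher in pTh17, and 4 lower and 1 higher in Tr1. The share of all genes called lower in these cultures was 20.4%, 28.9%, 9.49%, 8.33% and 14.2%, and the share called higher was 23.5%, 29.2%, 12.3%, 10.1% and 20.5%. In the Th17 comparison Cblb, a ubiquitin ligase that restrains T cell receptor signalling, changed by -1.10 ± 0.07 and Dgka, a diacylglycerol kinase with a like role, by -0.93 ± 0.05. Nt5e did not follow Folr4 in Th17: it was higher in IL-10 positive cells (345 against 254 CPM; 0.44 ± 0.11; edgeR, adjusted p = 0.000468), where Folr4 was lower. In Th2 the reverse was seen, with Nt5e lower at 0.786 against 3.05 CPM (-1.94 ± 0.35), beside a rise of Folr4 whose call was not firm. In Th1 (-0.84 ± 0.13) and pTh17 (-1.31 ± 0.25) Nt5e was lower, as Folr4 was. It was not called in Tr1 (0.46 ± 0.22), where Folr4 was lower.

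Gpr83 shared the directions of Folr4 in 4 of 5 cultures. Its IL-10 negative Th17 libraries read 120.2, 118.1 and 121.8 TPM, more than in any other group, and the positive ones 9.77, 10.3 and 5.87 TPM. The groups were far apart and the change of -3.64 ± 0.14 was the largest of any of the 5 genes in any culture (edgeR, adjusted p = 3.82e-23). In Th1 cultures it read 12.88, 14.02 and 12.78 TPM in negative and 1.37, 1.27 and 1.70 TPM in positive libraries. Here too no library overlapped, with a change of -3.15 ± 0.22 (edgeR, adjusted p = 6.46e-15). In Tr1 cultures it read 13.75, 14.95 and 12.01 TPM in negative and 9.78, 7.26 and 6.66 TPM in positive libraries (-0.71 ± 0.19; edgeR, adjusted p = 0.00311). In Th2 cultures it was low in both compartments, at 2.70, 3.37 and 1.77 TPM in negative and 4.79, 4.85 and 5.57 TPM in positive libraries. The Tr1 and the Th2 groups did not overlap either, and Th2 was the culture in which Gpr83 was higher in IL-10 positive cells (0.97 ± 0.20; edgeR, adjusted p = 0.000276).

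In pTh17 cultures Gpr83 read 19.1, 22.4 and 22.2 TPM in negative and 22.0, 25.5 and 19.7 TPM in positive libraries. These groups overlapped and the change was 0.01 ± 0.14 (edgeR, adjusted p = 0.981), in a culture where Folr4 was lower. The difference in Gpr83 was not equal in the 5 cultures (edgeR, adjusted p = 7.21e-20). Among IL-10 negative cells the order was Th17 (117 ± 5.46 CPM), pTh17 (27.0 ± 2.25), Th1 (17.4 ± 0.709), Tr1 (15.5 ± 0.819) and Th2 (3.31 ± 0.904). Each neighbour in it differed except Th1 and Tr1 (edgeR, adjusted p = 0.453). Among IL-10 positive cells pTh17 (27.2 ± 3.74 CPM) stood first, followed by Tr1 (9.52 ± 1.57) and Th17 (9.32 ± 2.73), with no difference called between them (edgeR, adjusted p = 0.915), Th2 (6.45 ± 0.470) and Th1 (1.94 ± 0.285). The step from Th17 to Th2 passed the test (edgeR, adjusted p = 0.00749) but not without Th17 IL-10 positive replicate 10 (0.0705) or 11 (0.0796). Th17 cells thus moved from the first place among IL-10 negative groups to the middle of the IL-10 positive ones.

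**Figure D2:**
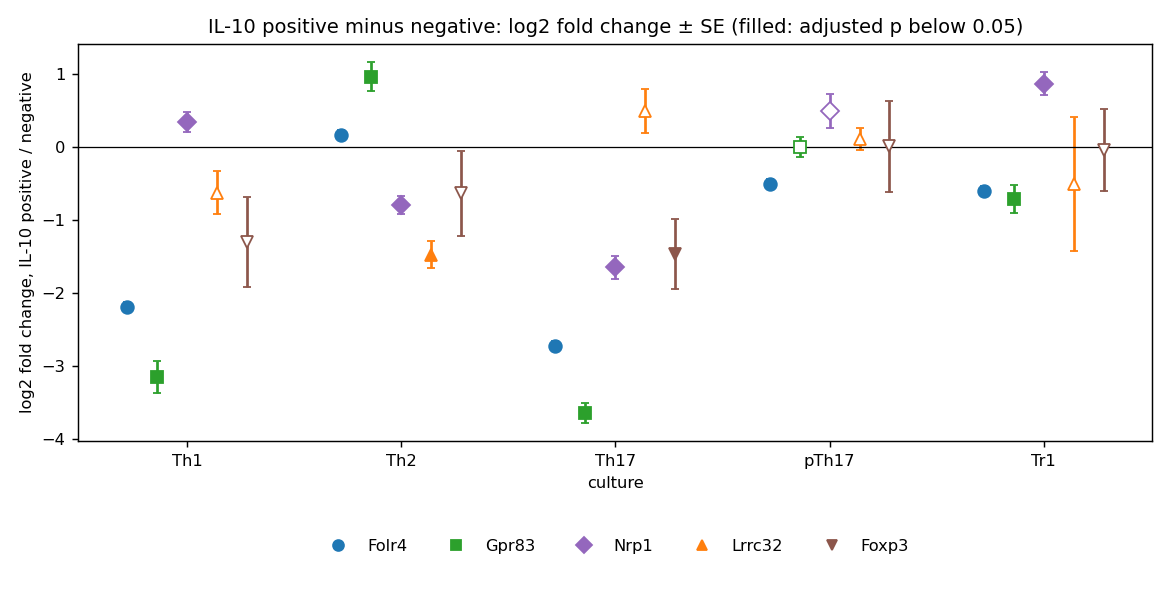
Log2 fold change of IL-10 positive over IL-10 negative (vertical axis) for the 5 genes in the 5 cultures (horizontal axis). Symbols are edgeR estimates with bars of 1 SE, filled where the adjusted p is below 0.05. Folr4 and Gpr83 lie lowest in Th17 (-2.73 and -3.64) and Th1 (-2.19 and -3.15), Nrp1 lies on both sides of 0, and Lrrc32 is filled in Th2 alone.

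Because Folr4 and Gpr83 lie side by side, the genes within 200 kb were read as well, a set chosen after the values of Folr4 and Gpr83 had been seen. The table lists 8 others there, of which 5 passed the filter: Amotl1, Fut4, Ankrd49, Mre11a and Panx1. Neither Amotl1 nor Ankrd49 was called in any culture. Mre11a, a subunit of a DNA repair nuclease, lies on the far side of Gpr83 and was higher in IL-10 positive cells in Th1 (0.32 ± 0.13) and Th17 (0.68 ± 0.12), where Folr4 and Gpr83 were lower. Panx1, which encodes a channel for ATP release and lies beyond Folr4, was lower in Th17 (-0.45 ± 0.16), higher in Tr1 (0.66 ± 0.15) and at -0.04 ± 0.16 in Th1, where it was not called. Fut4, a fucosyltransferase gene, was higher in Th17 (1.98 ± 0.52) and Th2 (1.49 ± 0.45), from a low level that ran from 0.135 to 6.81 CPM over the groups. In Th1 cultures none of these 5 neighbours was called lower, where 20.4% of all genes were, and in Th17 Panx1 alone was, where 28.9% were. With 5 genes, such counts do not set these neighbours apart from genes at large.

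**Figure D3:**
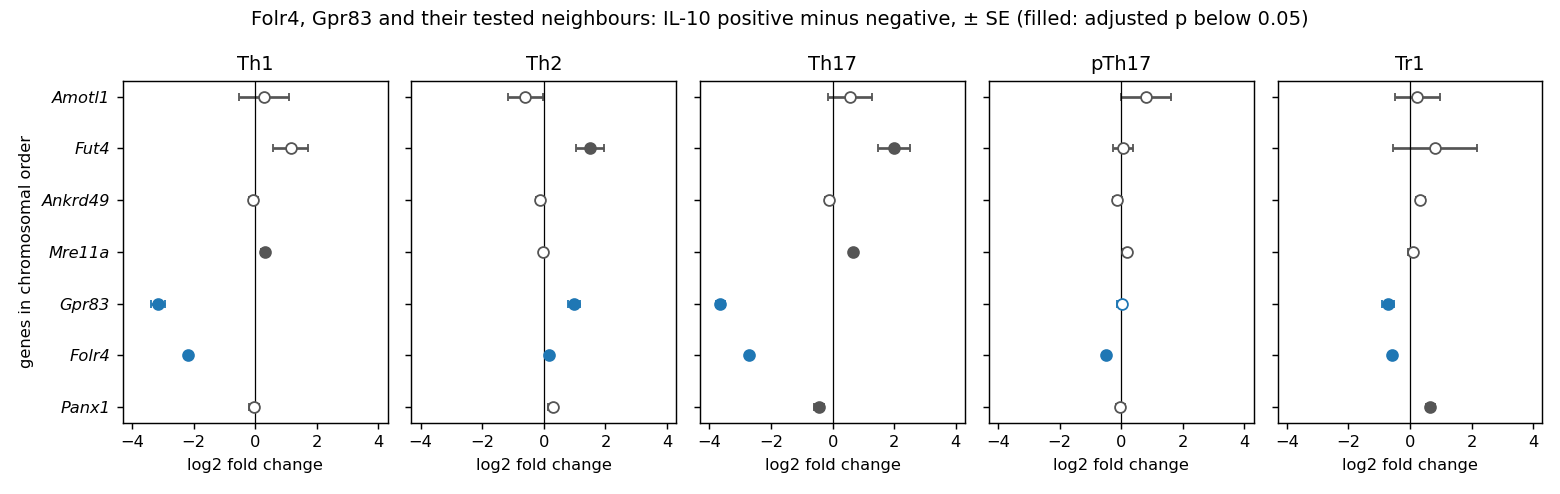
Log2 fold change of IL-10 positive over IL-10 negative (horizontal axis, bars of 1 SE) for Folr4, Gpr83 (blue) and the 5 tested genes around them (grey), in chromosomal order from top to bottom, 1 panel per culture. Filled points have an adjusted p below 0.05. Folr4 and Gpr83 lie between -2.19 and -3.64 in Th1 and Th17, while the grey points there lie between -0.45 and 1.98.

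Nrp1 differed between compartments in both directions. In Th17 cultures it read 11.2, 11.8 and 10.3 TPM in IL-10 negative and 3.13, 2.97 and 3.53 TPM in positive libraries. The groups did not overlap and the change was -1.64 ± 0.16 (edgeR, adjusted p = 1.36e-11). In Th2 cultures it read 18.7, 17.8 and 17.9 TPM in negative and 12.1, 9.61 and 9.62 TPM in positive libraries, again without overlap (-0.80 ± 0.12; edgeR, adjusted p = 4.14e-06). In Tr1 cultures the order was opposite, with 5.57, 4.40 and 7.21 TPM in negative and 10.8, 11.4 and 8.50 TPM in positive libraries. Every positive Tr1 library lay above every negative one, at 0.87 ± 0.16 (edgeR, adjusted p = 3.22e-05). In Th1 cultures it read 11.4, 10.9 and 9.69 TPM in negative and 13.37, 13.04 and 13.35 TPM in positive libraries. That difference, without overlap, was small at 0.35 ± 0.13 (edgeR, adjusted p = 0.0317). The call was lost without any 1 of 5 of the 6 Th1 libraries, all but IL-10 negative replicate 4 (edgeR, adjusted p from 0.0502 to 0.147) and by limma on log2(TPM + 1) (0.119).

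In pTh17 cultures Nrp1 was at its lowest, with 1.34, 1.65 and 0.92 TPM in negative and 2.40, 1.52 and 1.72 TPM in positive libraries. These overlapped, and 0.50 ± 0.23 did not pass the test (edgeR, adjusted p = 0.134). The difference was not equal in the 5 cultures (edgeR, adjusted p = 2.24e-12), and its mean over them was -0.14 ± 0.07 (edgeR, adjusted p = 0.0956). That mean was called without pTh17 IL-10 positive replicate 13 (0.0299), pTh17 negative replicate 15 (0.0421) or Tr1 negative replicate 17 (0.0282). Among IL-10 negative cells Nrp1 levels followed the order Th2 (63.1 ± 2.55 CPM), Th1 (38.2 ± 3.88), Th17 (29.4 ± 2.19), Tr1 (18.1 ± 5.47) and pTh17 (4.49 ± 1.10), and each neighbour differed. The step from Th1 to Th17 was the least firm (0.37 ± 0.14; edgeR, adjusted p = 0.0334). Its call was lost in DESeq2 (adjusted p = 0.0541) and without any 1 of 4 of the 6 libraries (edgeR, adjusted p from 0.0541 to 0.134), and on log2(TPM + 1) the difference was -0.058. Among IL-10 positive cells the order was Th1 (48.4 ± 1.33 CPM), Th2 (36.3 ± 5.03), Tr1 (33.7 ± 4.31), Th17 (9.40 ± 0.760) and pTh17 (6.23 ± 1.64), with no difference called between Th2 and Tr1 (edgeR, adjusted p = 0.502). The step from Th17 to pTh17 (edgeR, adjusted p = 0.0108) was lost without pTh17 IL-10 positive replicate 14 (0.079) or 15 (0.0516). Nrp1 was thus low in both pTh17 compartments and, among IL-10 positive cells, also in Th17.

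Of 11 listed ligands, co-receptors and partners of Nrp1, 7 passed the filter. In Th17 cultures 3 of the 7 were higher and 2 lower, against 29.2% and 28.9% of all genes, with a list median of -0.54 beside -0.04 over all genes. Sema4a, a semaphorin ligand of Nrp1, was among the lower ones, at 6.03 against 59.4 CPM (-3.29 ± 0.11; edgeR, adjusted p = 1.92e-24). Plxna1, a plexin co-receptor, was higher (0.69 ± 0.21). Outside Th17, Sema4a was higher in Th1 (0.34 ± 0.08) and Tr1 (0.61 ± 0.09), the cultures in which Nrp1 was higher too, and was not called in Th2 (-0.07 ± 0.08), where Nrp1 was lower. No member of the list was called in pTh17.

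Lrrc32 was called between compartments in 1 culture, and its level ranged widely between cultures. In pTh17 cultures it read 28.1, 29.2 and 24.8 TPM in IL-10 negative and 31.3, 31.7 and 30.3 TPM in positive libraries, above every library of the other cultures. The change of 0.12 ± 0.15 did not pass the test (edgeR, adjusted p = 0.68), although the TPM values did not overlap. In Th2 cultures it read 8.24, 10.2 and 8.49 TPM in negative and 3.74, 3.20 and 2.71 TPM in positive libraries. This was the single culture in which Lrrc32 was called, without overlap, at -1.47 ± 0.18 (edgeR, adjusted p = 6.98e-08). In Th1 cultures it read 1.5, 3.03 and 2.07 TPM in negative and 1.57, 1.37 and 1.31 TPM in positive libraries, which overlapped (-0.62 ± 0.30; edgeR, adjusted p = 0.0853). Without Th1 IL-10 negative replicate 4 that difference was called, at -0.78 (edgeR, adjusted p = 0.0429). In Th17 cultures it read 1.95, 1.02 and 2.15 TPM in negative and 2.11, 3.19 and 1.23 TPM in positive libraries, which also overlapped (0.50 ± 0.30; edgeR, adjusted p = 0.156). Without Th17 IL-10 positive replicate 12 it was called, at 0.80 (edgeR, adjusted p = 0.0179).

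In Tr1 cultures Lrrc32 was close to the limit of detection, with expected counts of 1, 1 and 7 in negative and 0, 3.05 and 2 in positive libraries, 9 and 5.05 in all. No difference was detectable at this depth. Elsewhere the counts behind each library ran from 11 to 566. Among IL-10 negative cells the order was pTh17 (60.3 ± 3.40 CPM), Th2 (19.8 ± 1.93), Th1 (4.99 ± 1.64), Th17 (2.89 ± 1.06) and Tr1 (0.463 ± 0.462), and each neighbour differed, Th1 and Th17 least firmly (edgeR, adjusted p = 0.0348), a call lost without Th1 IL-10 negative replicate 5 (0.243) or Th17 IL-10 negative replicate 11 (0.218). Among IL-10 positive cells it was pTh17 (65.4 ± 2.82 CPM), Th2 (7.12 ± 1.18), Th17 (4.07 ± 1.82), Th1 (3.31 ± 0.385) and Tr1 (0.348 ± 0.312), with no difference called between Th17 and Th1 (edgeR, adjusted p = 0.349). The step from Th2 to Th17 there (edgeR, adjusted p = 0.00283) was lost without Th17 IL-10 positive replicate 12 (0.0562). The IL-10 difference was not equal in the 5 cultures (edgeR, adjusted p = 3.27e-06). Its mean over them was -0.40 ± 0.21 (edgeR, adjusted p = 0.105), called without Th17 IL-10 positive replicate 11 (0.0418).

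Platelets carry Lrrc32 as well, so their genes were read beside it. Of 8 platelet and megakaryocyte markers, the summed level ran from 35.8 CPM in IL-10 positive Th17 cells to 405 CPM in IL-10 negative Th2 cells, nearly all of it from Itgb3, an integrin chain that T cells can also express. Pf4 and Ppbp, granule proteins that define platelets, stayed at or below 0.197 and 0.0849 CPM in every group, and Gp6 was at 0 in 9 of 10 groups. In pTh17 cells, where Lrrc32 was highest, the sum was 73.3 CPM in IL-10 negative and 67.2 CPM in positive libraries. Itgb3 was lower in IL-10 positive Th2 cells (-1.14 ± 0.09), as Lrrc32 was, and its part in that result was not tested.

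Genes that make, hold, release or sense TGF-beta were called in both directions. Of 13 tested genes on that list, 4 were higher and 1 lower in IL-10 positive Th1 cells, 4 and 0 in Th2, 4 and 5 in Th17, 3 and 1 in pTh17, and 2 and 4 in Tr1. The share of all genes called higher in those cultures was 23.5%, 12.3%, 29.2%, 10.1% and 20.5%, and the share called lower was 20.4%, 9.49%, 28.9%, 8.33% and 14.2%. Furin, the protease that cleaves the TGF-beta precursor, was higher in 4 cultures, most in Th17 at 190 against 39.2 CPM (2.28 ± 0.07; edgeR, adjusted p = 1.58e-26), and was at 0.02 ± 0.11 in Tr1. Lrrc33 (now Nrros), a relative of Lrrc32 that holds latent TGF-beta on other leukocytes, was lower in Th17 (13.8 against 36.0 CPM; -1.38 ± 0.10) and was not called in the other 4 cultures. Smad7, which feeds back on the TGF-beta receptor, was lower in Th17 (-1.57 ± 0.12) and Tr1 (-0.53 ± 0.14). Tgfbr2, a receptor chain, was lower in all cultures but Th2, and over their mean at -0.58 ± 0.05. Tgfb1, the ligand that Lrrc32 holds, was not called in any culture and stayed at or below 4.62 CPM.

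Foxp3 was at the edge of detection in these reporter negative cells. Its expected counts ran from 2 to 18.2 per library, and all 30 libraries held at least some. In IL-10 negative Th17 cells it read 1.75, 1.08 and 1.76 TPM and in the positive ones 0.26, 0.74 and 0.49 TPM, from 47.7 and 28.3 expected counts in all. The groups did not overlap and the change was -1.47 ± 0.48 (edgeR, adjusted p = 0.00863). Without Th17 IL-10 positive replicate 10 it was -1.18 and was not called (edgeR, adjusted p = 0.061). Foxp3 passed the filter on low counts, 1.30 CPM in at least 3 libraries, through 7 libraries, among them all 3 IL-10 negative Th17 libraries and 1 positive one, the other libraries being from Tr1 cultures.

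In Th1 cultures Foxp3 read 0.65, 0.52 and 0.46 TPM in negative and 0.26, 0.10 and 0.29 TPM in positive libraries. These did not overlap, but -1.30 ± 0.62 did not pass the test (edgeR, adjusted p = 0.0869). In Th2 cultures it read 0.23, 0.14 and 0.53 TPM in negative and 0.24, 0.12 and 0.26 TPM in positive libraries, in pTh17 cultures 0.34, 0.39 and 0.16 against 0.29, 0.28 and 0.36, and in Tr1 cultures 0.64, 1.25 and 0.43 against 0.74, 0.99 and 0.32. In these 3 cultures the compartments overlapped, with changes of -0.63 ± 0.58, 0.01 ± 0.63 and -0.04 ± 0.56, none called (edgeR, adjusted p of 0.498, 0.993 and 0.968). With standard errors of 0.56 to 0.63, a difference of 1 log2 unit was not detectable there. The mean change of Foxp3 over the 5 cultures was -0.69 ± 0.26 (edgeR, adjusted p = 0.0222). This call was lost without the filter on low counts (0.0622), without Th2 IL-10 negative replicate 9 (0.0932) and without Tr1 IL-10 negative replicate 17 (0.0595). The test did not show the difference to vary between cultures (edgeR, adjusted p = 0.268).

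Among IL-10 negative cells the cultures differed in Foxp3 (edgeR, adjusted p = 0.00275), where 88.2% of all genes did so and all 5 genes were called. Th17 stood highest at 2.47 ± 0.694 CPM, followed by Tr1 (1.45 ± 0.736), Th1 (1.19 ± 0.236), Th2 (0.654 ± 0.470) and pTh17 (0.619 ± 0.232), and no neighbours in this order differed with all libraries in the fit. Without Th2 IL-10 negative replicate 9, Th1 stood above Th2 by 1.55 on the log2 scale (edgeR, adjusted p = 0.0447). Among IL-10 positive cells, from Tr1 at 1.36 ± 0.671 to Th2 at 0.429 ± 0.158 CPM, the 5 groups did not pass the test (edgeR, adjusted p = 0.0604), although they did without Th17 replicate 10 (0.0431) or Tr1 replicate 18 (0.0325). The other 4 genes passed it, against 92.2% of all genes. Over the 20 pairs of cultures within a compartment, Foxp3 was called in 4, Folr4 and Gpr83 in 18 each, and Nrp1 and Lrrc32 in 19 each, 78 of 100 in all, where 59% of all gene and pair combinations were called. The 3' end of Foxp3 overlaps Ccdc22, which is read from the other strand, by 1435 bases. Ccdc22 stood at 31.0 ± 2.12 and 31.0 ± 1.60 CPM in IL-10 negative and positive Th17 cells, and lower, from 11.1 to 20.2 CPM, in the other groups. The libraries carry no strand, so reads of the shared stretch cannot be told apart. In Th1, where Foxp3 did not pass the test, Ccdc22 read 12.6 ± 0.474 CPM in IL-10 positive and 20.2 ± 0.879 CPM in negative cells. Foxp3 also shares 1341 bases with 4930524L23Rik (Flicr in RefSeq), a long noncoding RNA of the same strand. That RNA read 4.15 ± 2.94 CPM in IL-10 negative and 1.60 ± 0.383 CPM in positive Th17 cells, and 2.37 ± 0.460 and 0.370 ± 0.344 CPM in Th1. The part of both overlapping genes in the Foxp3 values was not tested.

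Regulators known to act on Foxp3 transcription were called lower in IL-10 positive cells more often than higher. Of 22 such genes, all tested, 13 were lower and 2 higher in Th1, 12 and 0 in Th2, 14 and 4 in Th17, 10 and 3 in pTh17, and 15 and 4 in Tr1. Of all genes, 20.4%, 9.49%, 28.9%, 8.33% and 14.2% were called lower in these cultures and 23.5%, 12.3%, 29.2%, 10.1% and 20.5% higher. List medians of -0.34, -0.23, -0.42, -0.22 and -0.39 stood beside medians over all genes of -0.02, 0.01, -0.04, -0.00 and 0.05. The highest over the mean of cultures were Uhrf1 (1.81 ± 0.06) and Dnmt1 (0.83 ± 0.04), which maintain DNA methylation and are known to keep Foxp3 silent in conventional T cells, and which also follow cell division. In Th17 cultures Uhrf1 read 244 against 32.8 CPM (2.90 ± 0.12; edgeR, adjusted p = 4.05e-22). Tet3, which oxidises methylated DNA, was lower in Th17 (63.5 against 179 CPM; -1.49 ± 0.08), and so was Gata3 (-1.15 ± 0.09). Id3, which favours Foxp3 expression, and Smad3, a transducer of TGF-beta signals, were the lowest over the mean, at -1.47 ± 0.07 and -0.86 ± 0.04. Smad3 was at 0.06 ± 0.09 in Th17 cells, the cultures given TGF-beta 1.

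Other genes of the regulatory T cell signature were called higher in IL-10 positive cells more often than lower, also where Folr4 and Gpr83 were lower. Of 23 tested genes of that list, without the 5 described above, 15 were higher and 4 lower in IL-10 positive Th1 cells, 13 and 6 in Th2, 12 and 2 in Th17, 11 and 2 in pTh17, and 15 and 3 in Tr1. Of all genes, 23.5%, 12.3%, 29.2%, 10.1% and 20.5% were called higher in these cultures and 20.4%, 9.49%, 28.9%, 8.33% and 14.2% lower. The list medians were 1.23, 0.48, 0.50, 0.48 and 1.22, beside -0.02, 0.01, -0.04, -0.00 and 0.05 over all genes. Il2ra, the IL-2 receptor alpha chain, was higher in all 5 cultures and most in Th17, at 439 against 88.4 CPM (2.31 ± 0.07; edgeR, adjusted p = 1.3e-26). Tnfrsf4, the costimulatory receptor OX40, read 235 against 64.0 CPM in Th17 (1.87 ± 0.08). Tigit, an inhibitory receptor, was higher in 5 of 5 cultures and by 1.86 ± 0.05 over their mean. Ebi3, a subunit shared by IL-27 and IL-35, read 15.02 against 4.50 CPM in pTh17 (1.74 ± 0.29) and 8.73 against 3.04 CPM in Th2 (1.53 ± 0.29). It was at 0 in all 3 IL-10 negative Tr1 libraries, so no change over the mean of cultures is given. Many of these genes are also known from activated T cells of any kind. The lower ones in Th17 were Ikzf4 (-0.41 ± 0.15) and Ikzf2 (-1.66 ± 0.50), which encode the transcription factors Eos and Helios, Ikzf2 being named after its value was seen and from a level of 1.74 against 0.542 CPM. The Ikzf4 call was lost on leaving out any 1 of 4 Th17 libraries, IL-10 positive replicates 10 and 12 and negative replicates 11 and 12, and its value ran from -0.54 to -0.31 over the 6 libraries left out in turn. Lrig1 and Ikzf4 were the lowest over the mean, at -1.43 ± 0.11 and -0.65 ± 0.08. Yet Lrig1 was higher in Th17 (0.36 ± 0.13), and Ikzf4 was not called in Th2 (0.04 ± 0.15) or pTh17 (0.15 ± 0.15). Ikzf2 was lower in Th1 too (-0.78 ± 0.30) but higher in Tr1 (1.04 ± 0.28).

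**Figure D4:**
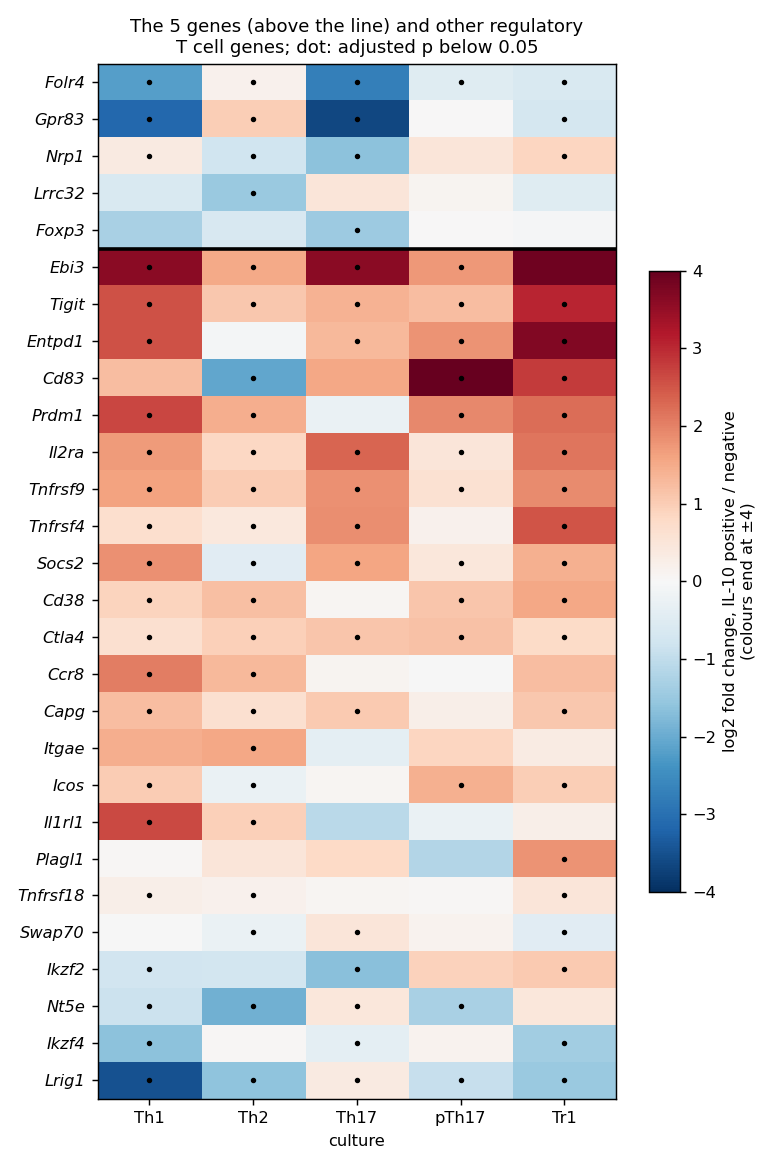
Log2 fold change of IL-10 positive over IL-10 negative (colour, blue lower and red higher, ending at ±4) for the 5 genes above the line and 23 other regulatory T cell genes below it, by culture. A dot marks an adjusted p below 0.05. The rows of Folr4 and Gpr83 are blue in Th1 and Th17 (-2.19 to -3.64), while Il2ra and Tigit are red in every column.

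Genes of naive T cells were read because the 5 genes were measured in cells that started naive. Of 12 listed, 10 were lower in IL-10 positive cells of Th1, Th17, pTh17 and Tr1 cultures and 11 in Th2, with medians of -0.88, -1.29, -1.39, -0.50 and -1.59. Of all genes, 20.4%, 28.9%, 8.33%, 14.2% and 9.49% were called lower there, and 23.5%, 29.2%, 10.1%, 20.5% and 12.3% higher. Of the listed genes, 1 was higher in Th1, 2 were higher in Th17, and 0 in the other cultures. Their summed level was 15324 CPM in IL-10 negative and 5790 CPM in positive Th17 cells, and 2714 and 1197 CPM in Th2. Dapl1 changed by -4.41 ± 0.26 in Th17. The 2 higher ones in Th17, named after their values were seen, were Il7r, the IL-7 receptor alpha chain (1.00 ± 0.12), and Bach2, a transcriptional repressor (0.38 ± 0.06). In Th1, Th17 and Tr1, Folr4 and Gpr83 were lower as most naive genes were, and in pTh17 Folr4 was lower while Gpr83 was not called. In Th2, where most naive genes were lower, Gpr83 was higher. Folr4 was higher there too, by a call lost on leaving out any 1 of the 6 Th2 libraries. The part of this list in the results for Folr4 and Gpr83 was not tested.

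The genes whose pattern was most like each of the 5 were found from the correlation of group means of log2 CPM over the 10 groups, among 9796 genes. These groups share cultures and sorts, and the coefficients are a description. For Folr4 they were Tnfsf8, Sik1 and Clec2i (Pearson's r of 0.88, 0.87 and 0.86). For Gpr83 they were Ppp6r2, Carm1 and Cic (0.93, 0.93 and 0.92). For Nrp1 they were Tbk1, Tmem179b and Gba2 (0.97, 0.95 and 0.95), and for Lrrc32 Rpl26, Bzrap1 and Lama5 (0.95, 0.95 and 0.94). None of the 5 was among the nearest of another, and Folr4 and Gpr83, in spite of their shared directions, correlated at 0.41 over the groups. Foxp3 was too low for this comparison.

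The libraries held 4394704 to 11850597 expected counts each. All 7 CD4 T cell markers were detected in every group, with a summed level of 3650 to 5733 CPM. Summed B cell markers stayed between 3.14 and 7.67 CPM except in IL-10 positive pTh17 cells, at 49.4 ± 11.8 CPM. There 5 of 6 tested B cell markers were called higher, Cd79a among them, where 10.1% of all genes were. Markers that are low elsewhere can pass the filter on low counts through such a group alone, so this count is a description only. The myeloid sum was 17.3 against 7.69 CPM in IL-10 positive and negative pTh17 cells. Of 5 tested myeloid markers, 3 were called higher, against 10.1% of all genes. Lyz2 was among them, at 0 in all IL-10 negative pTh17 libraries. Itgam, the largest part of the sum in the positive cells at 5.08 CPM, was at -0.24 ± 0.23 and not called. All 3 tested NK cell markers were called higher in pTh17 as well, with a sum of 7.2 against 0.596 CPM. Of 6 tested dendritic cell markers, 2 were called higher there and 0 lower. These were Flt3 (4.79 ± 0.71) and Tcf4 (0.80 ± 0.24). Folr4 was the one gene of the 5 called in pTh17 cultures. The part of B cells, myeloid cells, NK cells and dendritic cells in its value was not tested. Summed NK cell markers stood at 121 against 22.5 CPM in IL-10 positive and negative Th1 cells and at 109 against 21.3 CPM in Tr1. Klrk1, an activating receptor that activated T cells can also carry, led those sums in the positive cells (3.52 ± 0.18 in Th1 and 3.61 ± 0.19 in Tr1). Klrd1 was higher too (1.34 ± 0.18 and 1.52 ± 0.19). Of 3 tested NK cell markers, 3 were called higher in Th1 and 2 in Tr1, against 23.5% and 20.5% of all genes. Klre1, called higher in Th1, was at 0 in the IL-10 negative Th1 libraries and in all Tr1 libraries. Ncr1 was at 0 in all IL-10 positive Th1 libraries. Myeloid sums were 71.1 against 19.4 CPM in Th1 and 15.6 against 4.17 CPM in Tr1, almost all of it Itgam, and the CD8 sums were 33.4 against 22.96 and 47.1 against 24.98 CPM. Their part in the results of the 5 genes in Th1 and Tr1 was not tested. Endothelial and stromal markers, read because such cells carry Nrp1, consisted almost wholly of Pecam1, with Cdh5, Kdr and Tek at or below 0.206 CPM in every group. The sum of dendritic cell markers, with Bst2 its largest part, was 42.3 against 22.6 CPM in Th17, where Nrp1 was lower. In Tr1, where Nrp1 was higher, the sum was 52.5 against 41.5 CPM. It was also higher in IL-10 positive cells of Th1 (44.3 against 26.6 CPM), Th2 (44.6 against 31.6 CPM) and pTh17. The part of dendritic, endothelial and stromal cells in the Nrp1 results was not tested.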

How the data were processed

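The samples were 30 RNA-seq libraries, made per the labels' protocols by an adaptation of SMART-Seq2, which carries no strand and no molecular identifiers. Samples were grouped and numbered by their titles, because the sort protocol describes both compartments as Thy1.1 positive. The authors deposited RSEM's expected counts and TPM per gene, per the file headers; gene length, a further measure deposited by the authors, entered no test. The submitters' processing notes name RSEM and mm10, with no version or aligner given in the sources used here.

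Expected counts were rounded, filtered in edgeR 4.0.16 (R 4.3.3) with filterByExpr, which kept 12611 of 23420 genes including all 5 members, and scaled by TMM. The quasi-likelihood test of edgeR used 1 fit of 30 libraries, a term for each of the 10 groups and no covariate; p-values were two-sided and Benjamini-Hochberg adjusted over all genes tested. A standard error is the fold change on the log2 scale divided by the root of its F statistic. Library totals ran from 4394704 to 11850597. The scripts were tested on simulated data. Alternatives were other size factors, DESeq2 1.42.0, no filter, limma 3.58.1 on log2(TPM + 1), fits of only the groups compared, each library left out, and the replicate number as a block.

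The genes, lists, markers and motifs were chosen with earlier results of these data known. Named from each list were the 2 highest and 2 lowest called genes of at least 5 CPM, in the Th17 and the mean comparison; other values serve the group they describe. A few genes that the rule names are left unreported. Patterns were compared among genes of at least 5 CPM in a group (prior count 2), leaving out Gm, LOC and Rik symbols and small RNAs. Of the listed symbols 3 were matched by synonym. Promoter windows and positions are RefSeq's on GRCm38.p6.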

Additional observations from a re-analysis of the deposited data

Results flagged for a closer look

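The difference between IL-10 positive and negative cells varied between the 5 cultures for 4 of the 5 genes, by edgeR's quasi-likelihood test of equal differences (Benjamini-Hochberg adjusted). For Folr4 the adjusted p was 3.36e-25, with changes from -2.73 in Th17 to 0.17 in Th2. For Gpr83 it was 7.21e-20, with changes from -3.64 in Th17 to 0.97 in Th2. For Nrp1 it was 2.24e-12, with changes from -1.64 in Th17 to 0.87 in Tr1. For Lrrc32 it was 3.27e-06, with changes from -1.47 in Th2 to 0.50 in Th17. By the same test the difference varied for 60.7% of all genes tested.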

How the results depend on the processing

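Every count of genes called over the whole table stayed within 1.5 times its value under all alternatives run. The split of calls moved by over 10 points in 3 cases: in Tr1 without the filter on low counts (2058 higher and 2340 lower, beside 2591 and 1786), and by limma on log2(TPM + 1) in Th17 (2987 and 4499, beside 3688 and 3650) and pTh17 (1624 and 670, beside 1277 and 1050). Of the members' calls, those of Folr4, Gpr83 and Nrp1 in Th17 and Tr1, of Folr4 in pTh17, of Folr4 and Gpr83 in Th1, and of Gpr83, Nrp1 and Lrrc32 in Th2 held under every alternative run. By limma all 5 members were called over the mean of cultures, Nrp1 with an adjusted p of 0.0218 and Lrrc32 of 0.0143. Also by limma, the IL-10 difference in Foxp3 was called unequal over the cultures (0.0334), and Foxp3 differed between Th17 and Tr1 IL-10 negative cells (0.0101). The same setting ended the calls of Folr4 between Th1 and Tr1 (0.0567) and Lrrc32 between Th1 and Th17 (0.304), both IL-10 negative, and of Nrp1 between Th1 and Th2 (0.0664) and Lrrc32 between Th2 and Th17 (0.0641), both IL-10 positive. Signs turned only for differences that were not called, apart from Nrp1 in Th1 minus Th17 IL-10 negative cells (-0.058 by limma). The others by limma were Foxp3 in Th2 minus pTh17 (-0.0034) and Gpr83 in Th1 minus Tr1 (-0.0305), both IL-10 negative, and Gpr83 in Th17 minus Tr1 IL-10 positive cells (0.10). Without the filter this last was 0.12, and Gpr83 in pTh17 was -0.0035. The causes were not tested.

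With each library left out in turn, signs turned for the following uncalled differences, given as the lowest and highest value. IL-10 positive minus negative ran from -0.27 to 0.20 for Foxp3 in pTh17, -0.96 to 0.13 in Th2 and -0.45 to 0.43 in Tr1, from -0.0919 to 0.0998 for Gpr83 in pTh17, and from -1.14 to 0.84 for Lrrc32 in Tr1. Between IL-10 negative cultures, Foxp3 ran from -0.57 to 0.21 in Th1 minus Tr1 and from -0.64 to 0.46 in Th2 minus pTh17, and Folr4 from -0.0811 to 4e-04 in Th2 minus Th17. Between IL-10 positive cultures, Foxp3 ran from -0.16 to 0.48 in Th1 minus Th2, Gpr83 from -0.14 to 0.22 in Th17 minus Tr1, and Lrrc32 from -0.60 to 0.0615 in Th1 minus Th17.

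Replicate numbers are shared by the compartments of a culture, but deviations of same-numbered libraries correlated at -0.046 to 0.0546, so the numbers were not taken to pair them. These are deviations from means of only 3 libraries, so the check cannot exclude a pairing. With the number as a replicate block, 5467 genes were called in Th1, 2777 in Th2, 7246 in Th17, 2322 in pTh17, 4315 in Tr1, 7242 over the mean and 7405 for equality, beside 5529, 2752, 7338, 2327, 4377, 7295 and 7651. Depth limits Foxp3 everywhere (at most 18.2 counts in a library) and Lrrc32 in Tr1 (at most 7).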
